A study of Caenorhabditis elegans with 12 samples.

Results

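The *nhr* genes of *Caenorhabditis elegans*, which encode nuclear hormone receptors, were followed in early embryos in which the muscle regulator HLH-1 was switched on by a heat pulse. Members were all probe sets (groups of short probes that together measure 1 transcript) annotated to a single gene whose symbol starts with nhr-. This rule, which uses no measured value, took 293 of 22548 probe sets, for 254 of 17118 genes. The arrays hold 12 samples of about 80 embryos each, collected at the 1-cell and 2-cell stage from strain KM267, which carries *hlh-1* under a heat shock promoter. Embryos were taken 0 h, that is before any heat pulse, or 2, 4 and 6 h after 30 min at 34 °C, with 3 independent samples (A, B and C) at each time. The later samples had been incubated for 60 min before the pulse. All 12 samples carry the transgene and none was heated without it, so in every comparison with 0 h the effect of HLH-1, the heat and the passage of developmental time cannot be told apart. The values are MAS5 signals, a linear measure of probe brightness that does not compare transcript amounts between probe sets.

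Nuclear hormone receptors are transcription factors that join a zinc finger DNA binding domain to a domain for small lipophilic ligands such as steroids, fatty acids and bile acids. Ligand, or its absence, sets which co-activators or co-repressors the receptor recruits to its target genes. Nematodes carry a very large family, most of it expanded from an ancestor of the HNF4 type, beside a small group with recognizable relatives in insects and vertebrates. Known functions in the worm span molting, epidermal and neuronal fate, fat metabolism, and responses to starvation, hypoxia and toxins.

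The 40th percentile of signal was taken on each array, and the median of these values, 69.7, was used as a reference level. Probe sets above it on at least 3 arrays were tested. This left 218 members (191 genes) tested and 75 not tested. Of those not tested, 23 were above the reference level on 0 arrays and 52 on 1 or 2. A further 184 members were above it on 3 to 11 arrays and 34 on all 12. All 3 arrays of a time were above the level for 78 members at 0 h, 79 at 2 h, 88 at 4 h and 102 at 6 h. Changes were tested on log2 signals in limma over all 18264 tested probe sets, with calls made at an adjusted p below 0.05 together with a change of 1.7-fold or more. A fold given as "at least" is a lower bound, used where the dimmer time had an array no higher than the reference level and computed with such signals raised to that level. All folds, bounds included, compare means of log2 signals, that is geometric means, and can be larger or smaller than the ratio of the arithmetic means printed with an SD. Log2 changes of single members are printed as fitted, with no bound unless stated, and can rest on signals under the reference level.

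The induced gene behaved as labelled, since *hlh-1* averaged 247.5 ± 87.1 at 0 h, 3503 ± 631 at 2 h, 1357 ± 187 at 4 h and 1344 ± 424 at 6 h (mean ± SD of 3 arrays, as for all means here). Signal from the transgene was not separated from that of the endogenous gene. Body wall muscle markers were called raised at 8 of 8 probe sets at 6 h, when their summed signal was 233400 to 337600, against 496 to 3806 at 0 h. Early embryo and germ line markers fell at 5 of 5, with sums of 310 to 4378 at 6 h, against 32490 to 38390 at 0 h. Other tissues gave mixed calls at 6 h, with 1 raised and 2 lowered of 5 intestine probe sets, 1 and 1 of 6 for epidermis, and 1 and 0 of 6 for neurons. Over all tested probe sets 21.7% were raised and 15.6% lowered at 6 h. *end-1*, an early gut regulator, averaged 252 ± 33.4 at 6 h, against 29310 ± 3960 at 0 h, and the gut marker *ges-1* averaged below the reference level at both. These genes do not stand for the intestine list, whose median log2 change at 6 h over 5 probe sets was -0.02, with 1 raised. The part of these shifts in the receptor results was not tested, and fewer cells of a type and less RNA per cell cannot be told apart. Correlations between replicate arrays were 0.835 to 0.884 over probe sets, and array medians were 89.6 to 141.

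At 6 h against 0 h, 41 members (36 genes) were called raised and 14 (10 genes) lowered. These are 18.8% and 6.42% of the members tested, where 21.7% of all tested probe sets were raised and 15.6% lowered. At 4 h against 0 h 23 were raised (10.6%) and 12 lowered (5.5%), beside 17.1% and 11.9% of all tested. For 2 h against 0 h, 17 members were raised and 17 lowered, 7.8% in each direction, beside 15.5% and 9.55%. The raised share at 6 h was near the background and the lowered share below it. In 39 of the 41 raised and 13 of the 14 lowered, the 6 h arrays did not overlap the 0 h arrays. These shares, 95.1% and 92.9%, lie beside 96.8% and 97.9% of all probe sets called raised and lowered. The median log2 change over tested members was 0.66 at 6 h, against 0.31 over all tested probe sets, and 0.24 against 0.17 with low signals set to the reference level. These 3 comparisons share the 0 h arrays. Between the later times, 10 members rose and 7 fell at 4 h against 2 h (background 6.9% and 7.35%), 19 rose and 1 fell at 6 h against 4 h (7.73% and 8.39%), and 37 rose and 12 fell at 6 h against 2 h (14.3% and 14.5%). The 19 raised at 6 h against 4 h are 8.72% of the members tested and the 37 at 6 h against 2 h are 17.0%.

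**Figure D1:**
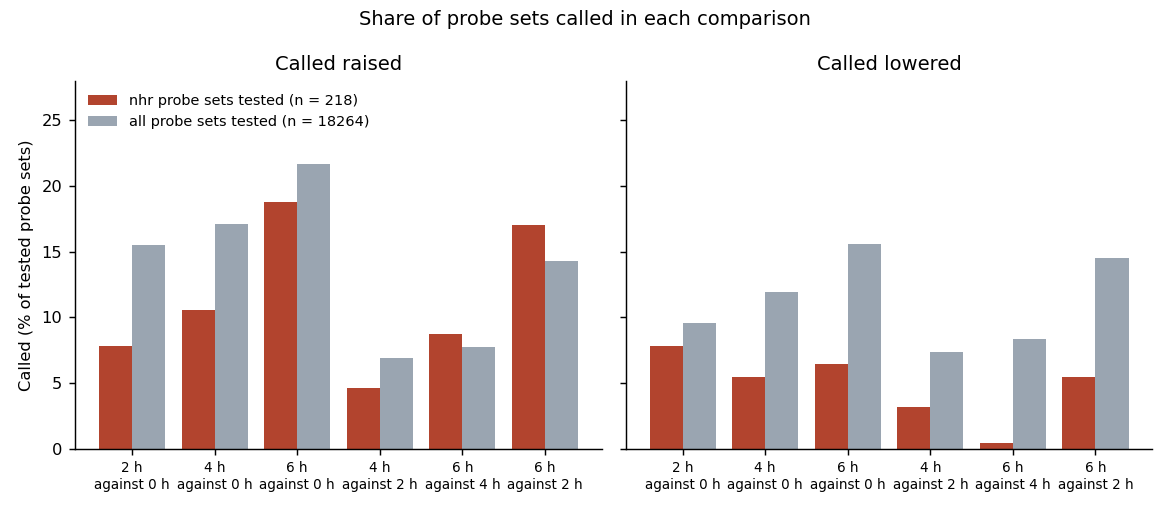
Percent of tested probe sets called raised (left panel) and lowered (right panel) in 6 comparisons, for the 218 *nhr* probe sets tested (red) and all 18264 probe sets tested (grey). The share of *nhr* probe sets called lowered is below that of all probe sets in every comparison, while the raised share at 6 h is 18.8% against 21.7%.

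The split between directions moved with the scaling of the arrays. The MAS5 signals put 41 of 55 called members (74.5%) on the raised side at 6 h, whereas arrays shifted to one median gave 32 raised and 20 lowered (61.5% raised) and quantile normalization gave 35 and 19 (64.8%). With those scalings the raised share of all tested probe sets was 16.8% and 18.5%, and the lowered share 19.4% and 18.3%. More members were raised than lowered under each scaling at 6 h.

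Weak signals were called less often, so calls at 6 h were also counted by the geometric mean signal over all 12 arrays. Of 136 tested members with a mean under 100, 12 were raised (8.82%) and 5 lowered (3.68%), against 10% and 5.71% of all 8080 such probe sets. From 100 to 200 the shares were 28.3% raised and 8.7% lowered of 46 members, against 23.5% and 12.6% of all. From 200 to 500 they were 50% and 15.4% of 26 members, against 35.3% and 22.2%. Above 500 only 10 members remained, with 3 raised and 1 lowered, against 33.4% and 32.5% of all. In each of these 4 ranges the lowered share of members was below that of all probe sets. Among tested members 105 (48.2%) had their highest mean signal at 6 h, as had 36.8% of all tested probe sets.

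**Figure D2:**
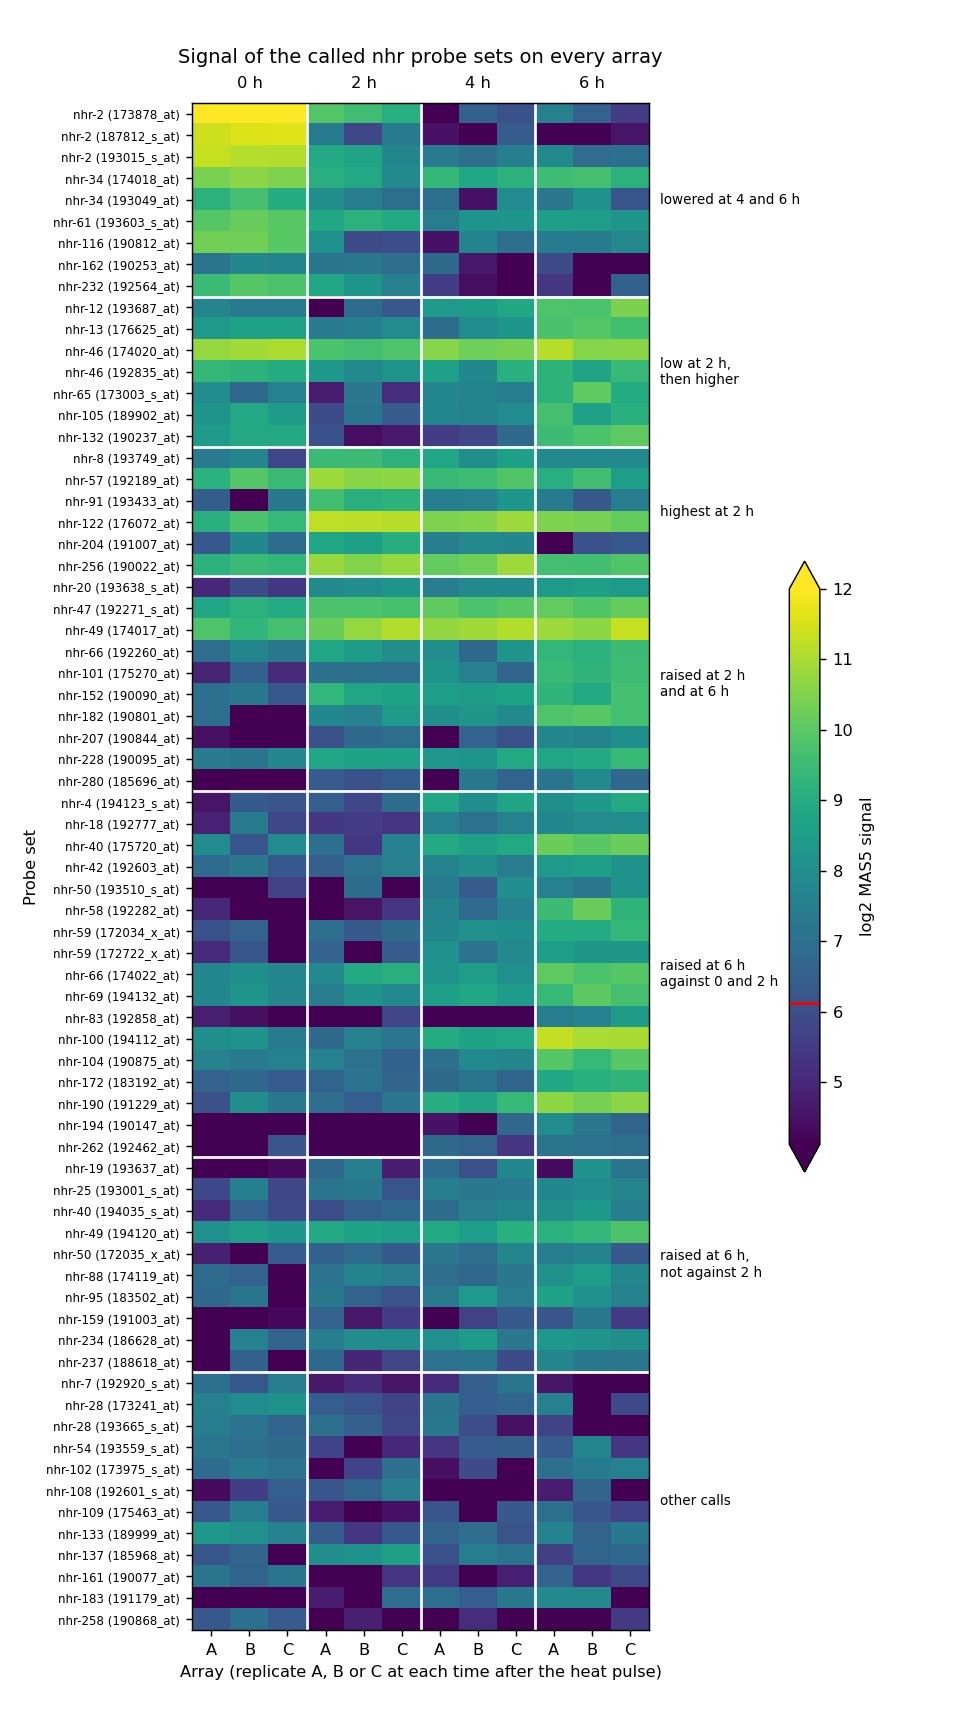
Log2 MAS5 signal of the 71 *nhr* probe sets called against 0 h at any time, 1 row each, on the 12 arrays (columns, replicates A to C at 0, 2, 4 and 6 h, with 0 h before the heat pulse). The red line on the scale marks the reference level of 69.7, and the rows are grouped by the pattern of their calls, from those lowered at 4 and 6 h at the top to mixed calls at the bottom.

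Over all 3 comparisons with 0 h, 71 probe sets (61 genes) were called at some time, 32.6% of the members tested, beside 47.9% of all tested probe sets. Grouped by their calls alone, 9 fell by 4 h and were also lowered at 6 h (4.13% of the members tested, beside 9.84% of all), and 7 fell at 2 h and were higher again at 6 h (3.21%, beside 1.87%). A further 6 were highest at 2 h (2.75%, beside 5.0%), 10 rose by 2 h and were raised at 6 h (4.59%, beside 8.56%), and 17 rose at 6 h against both 0 and 2 h (7.8%, beside 7.45%). The remaining 22 had other combinations (10.1%, beside 15.1%). Because the groups are defined by the calls, the values below describe them and no test compares the groups.

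*nhr-2*, a receptor present in the early embryo and needed for embryonic development, had the largest called falls among members at each time against 0 h. Its probe set 173878_at read 4786, 4763 and 5315 at 0 h, 952, 772 and 539 at 2 h, 14.3, 95.6 and 68.1 at 4 h and 189.8, 97.6 and 46 at 6 h. All arrays at 2 h were below all at 0 h, and those at 4 and 6 h were lower again, on both sides of the reference level. The change was 6.74-fold lower at 2 h, at least 63.9-fold lower at 4 h and at least 45.4-fold lower at 6 h (limma, adjusted p = 0.0048, 1.5e-06 and 5.5e-06). Without 4 h replicate A, the lowest array, the log2 change at 4 h was -5.94 and not -6.77. The probe set 187812_s_at averaged 16.2 ± 7.36 at 6 h, against 2960 ± 241 at 0 h, and 193015_s_at averaged 163 ± 65.1 at 6 h, against 2313 ± 195 at 0 h. Both were lowered at every time, by log2 changes at 6 h of -7.62 ± 0.70 and -3.90 ± 0.35 (SE). At 4 h 187812_s_at moved to -7.29 without 4 h replicate C. The fourth *nhr-2* probe set, 187811_at, averaged 143 ± 145 at 6 h, against 54.7 ± 13.9 at 0 h, and was not called.

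*nhr-232* was called lowered at 4 and 6 h and not at 2 h. Its signals were 716, 971 and 885 at 0 h, 463, 309.8 and 189 at 2 h, 48.4, 21.5 and 11.6 at 4 h and 42.5, 15.5 and 95.2 at 6 h. The 2 h arrays lay between the 0 h and the later arrays without overlap, but the call at 2 h was missed (adjusted p = 0.12). It was at least 12.2-fold lower at 4 h and at least 11.0-fold lower at 6 h (adjusted p = 3.9e-06 and 2.2e-05). The log2 change at 6 h, -4.42, lay between -5.05 without 6 h replicate C and -3.74 without 6 h replicate B.

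*nhr-116* and *nhr-61* fell at all 3 times. *nhr-116* read 1288, 1252 and 1007 at 0 h, 269, 60.4 and 62.7 at 2 h, 22.7, 206 and 128 at 4 h and 169.7, 165 and 229.9 at 6 h. Its 0 h arrays stood clear of the other 9. The fall was at least 10.8-fold at 2 h, at least 9.6-fold at 4 h and 6.32-fold at 6 h (adjusted p = 0.00076, 0.00032 and 0.0049). Single arrays moved the log2 change at 2 h to -4.26 (without 2 h replicate A) and that at 4 h to -2.86 or -4.45 (without 4 h replicate A or B). *nhr-61* was less deep and tighter, with 968, 1146 and 989.9 at 0 h, 448, 581 and 476 at 2 h, 173, 295 and 309 at 4 h and 382, 373 and 306 at 6 h. No time overlapped 0 h, and the change was 2.07-fold, 4.12-fold and 2.93-fold lower in order of time (adjusted p = 0.0078, 7e-06 and 0.00013).

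Both probe sets of *nhr-34* fell. Signals at 174018_at were 1374, 1581 and 1423 at 0 h, 537, 472 and 233 at 2 h, 661, 449 and 588 at 4 h and 748, 811 and 581 at 6 h. Arrays at 2 and 4 h overlapped, and no later array reached the 0 h range. It was 3.74-fold lower at 2 h and 2.06-fold lower at 6 h (adjusted p = 3.2e-05 and 0.0062). The other probe set, 193049_at, averaged 169 ± 105 at 6 h, against 638 ± 158 at 0 h, and its call at 6 h (log2 change -2.10, adjusted p = 0.021) was lost without 0 h replicate B, 6 h replicate A or 6 h replicate C. At 4 h its log2 change was -2.82, or -1.84 without 4 h replicate B and -3.55 without 4 h replicate C. *nhr-162* was the sixth gene of this pattern, at 31.1 ± 26.3 at 6 h, against 189 ± 41.7 at 0 h, with a change at 6 h of -2.89 (adjusted p = 0.013) that moved to -3.55 without 6 h replicate A. Its call at 4 h, -2.59, was lost without any of 5 single arrays and was -3.53 without 4 h replicate A and -1.80 without C.

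**Figure D3:**
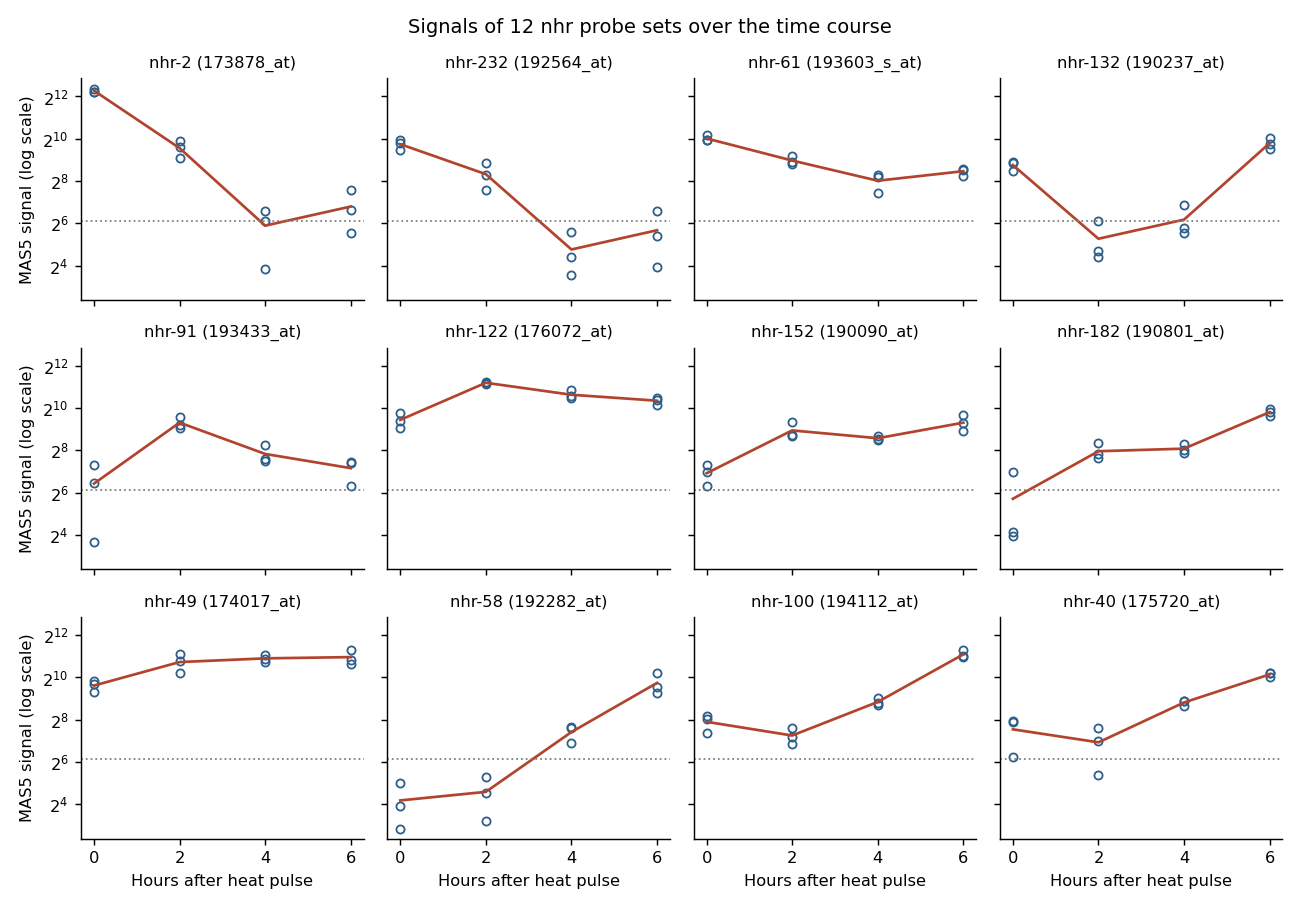
MAS5 signal on a log scale against hours after the heat pulse (0 h is before it) for 12 *nhr* probe sets. Open circles are single arrays, 3 at each time, the line joins the means, and the dotted line is the reference level of 69.7, below which the *nhr-2*, *nhr-232*, *nhr-132*, *nhr-182*, *nhr-91*, *nhr-40* and *nhr-58* panels hold arrays.

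A second group was low at 2 h and higher again at 6 h. *nhr-132* had the widest swing of it, with 359, 468 and 473 at 0 h, 68.6, 21.4 and 25.9 at 2 h, 46.6, 55.3 and 115 at 4 h and 735, 864 and 1059 at 6 h. Every array at 2 and 4 h was below every array at 0 h, and every array at 6 h was above them all. It was at least 6.17-fold lower at 2 h and at least 5.22-fold lower at 4 h (adjusted p = 1.2e-05 and 0.00032), and at least 12.6-fold higher at 6 h than at 2 h (adjusted p = 3.2e-07). At 6 h against 0 h the log2 change of 1.03 ± 0.52 (SE) was not called (adjusted p = 0.13). *nhr-105* followed a like course, with means of 370 ± 88.6, 96.6 ± 44.8, 221 ± 22.9 and 589 ± 212 at 0, 2, 4 and 6 h. It was lowered at 2 h by 2.01 on the log2 scale (adjusted p = 0.00059) and was at least 5.96-fold higher at 6 h than at 2 h.

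The dip of *nhr-46* was seen at both of its probe sets. At 174020_at the signals were 1716, 1928 and 2105 at 0 h, 879, 803 and 919.6 at 2 h, 1516, 1215 and 1334 at 4 h and 2263, 1515 and 1541 at 6 h. All 3 arrays at 2 h lay below the others, and the 6 h arrays spanned the 0 h range. The fall at 2 h was 2.21-fold (adjusted p = 0.00026), and at 192835_at it was 2.09-fold (adjusted p = 0.019). The 2 h call at 192835_at was lost without 0 h replicate A or 2 h replicate B. At 6 h against 2 h the log2 changes were 1.01 and 0.99. Both calls ended with arrays shifted to one median, and that at 192835_at also without 2 h replicate B, 6 h replicate A or 6 h replicate C. In *nhr-12* the signal at 6 h passed that at 0 h, with 211, 168 and 169 at 0 h, 14.7, 119.1 and 76.9 at 2 h, 324, 340.4 and 459 at 4 h and 919, 867 and 1399.8 at 6 h. All arrays at 6 h exceeded all others, and the rise at 6 h was 5.72-fold against 0 h (adjusted p = 0.00089) and at least 12-fold against 2 h. Its fall at 2 h (log2 change -1.82, adjusted p = 0.017) was -0.92 and not called without 2 h replicate A, -2.43 without 2 h replicate B, and not called without 0 h replicate A.

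The other members of this group were *nhr-13*, a partner of NHR-49 in lipid gene control, and *nhr-65*. *nhr-13* read 326, 393 and 394 at 0 h, 162, 179 and 242 at 2 h, 121, 248 and 306 at 4 h and 849.7, 956 and 792 at 6 h. The 2 h arrays were below all at 0 h and the 6 h arrays above them, but the call at 2 h (log2 change -0.95, adjusted p = 0.048) was lost without any of 9 single arrays. At 6 h it was 2.34-fold higher than at 0 h (adjusted p = 0.0073), a call that ended with arrays shifted to one median. *nhr-65* read 251, 109 and 188 at 0 h, 26.4, 153 and 35.4 at 2 h, 217, 205 and 175 at 4 h and 588, 1068 and 506 at 6 h at 173003_s_at. The 2 h arrays overlapped 0 h, since replicate B was higher than A and C, and the 6 h arrays were above all others. It was 3.95-fold higher at 6 h than at 0 h (adjusted p = 0.008, lost without 6 h replicate B), and the fall at 2 h (-1.72) was lost without any of 4 single arrays and was -2.50 without 2 h replicate B. The second probe set, 193567_at, was not called (adjusted p at 6 h = 0.074).

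Another group was highest at 2 h, and 2 of its 6 genes belong to the small conserved set. That set holds 10 of the 254 member genes, and its share in this group was not tested. *nhr-91*, related to vertebrate GCNF and insect HR4, read 87, 12.9 and 159 at 0 h, 777, 536 and 596 at 2 h, 184, 193 and 307 at 4 h and 171, 80.8 and 178 at 6 h. All 2 h arrays stood above the others and the 6 h arrays overlapped those at 0 h. It was at least 6.37-fold higher at 2 h (adjusted p = 0.0005), with a log2 change of 3.48 that ran between 2.42 without 0 h replicate B and 4.23 without 0 h replicate C. Its call at 4 h (log2 change 1.98) was lost without 0 h replicate B, when it was 0.92, or without any of the 4 h arrays, and was 2.73 without 0 h replicate C. At 6 h it was not called against 0 h (adjusted p = 0.16). Against 2 h its log2 change at 6 h was -2.22, a call lost without 2 h replicate A or 6 h replicate B.

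*nhr-8*, a relative of DAF-12 that acts in toxin resistance and in cholesterol and bile acid balance, gave 162, 208 and 56.3 at 0 h, 720.2, 737 and 586 at 2 h, 429, 263 and 382 at 4 h and 231.7, 232.2 and 237.2 at 6 h. Each time after the pulse lay wholly above 0 h, with the 2 h arrays highest. The rise at 2 h was at least 5.09-fold (adjusted p = 0.0001), and the signal at 6 h was 2.9-fold lower than at 2 h (adjusted p = 0.0064). The call at 4 h (log2 change 1.5) was lost without 0 h replicate C, when the change was 0.93.

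*nhr-57*, which the hypoxia factor HIF-1 is known to induce, read 569, 946 and 725 at 0 h, 1825, 1556 and 1619 at 2 h, 694, 752 and 929 at 4 h and 541, 778 and 366 at 6 h. All 2 h arrays were above the 0 h range and the 4 and 6 h arrays overlapped it. The rise at 2 h was 2.28-fold (adjusted p = 0.002). *nhr-122* and *nhr-256* came down more slowly. *nhr-122* averaged 696 ± 169, 2348 ± 65.6, 1586 ± 217 and 1305 ± 158 at 0, 2, 4 and 6 h, with no array after the pulse in the 0 h range. It was 3.44-fold higher at 2 h and 2.31-fold higher at 4 h (adjusted p = 1.7e-06 and 0.00014). Its call at 6 h, at 1.9-fold, was lost without 0 h replicate A and with arrays shifted to one median. Its fall at 6 h against 2 h, -0.85 on the log2 scale, was lost without 6 h replicate C and with quantile normalization. *nhr-256* averaged 651 ± 77.6, 1659 ± 180, 1394 ± 396 and 842 ± 84.3 at the same times, 2.55-fold higher at 2 h and 2.1-fold higher at 4 h (adjusted p = 0.0001 and 0.00088), and was not called at 6 h (adjusted p = 0.22). *nhr-204* averaged 139 ± 74.8, 445 ± 67.2, 207 ± 24.9 and 52.8 ± 34.9, with calls at 2 h (1.80) and 6 h (-1.63) that were lost without any of 5 and 9 single arrays. At 6 h its log2 change was -0.80 without 6 h replicate A.

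Genes of the next group were raised by 2 h and again at 6 h. *nhr-182* had signals of 124, 15.5 and 17.5 at 0 h, 224, 197 and 326 at 2 h, 263, 316 and 235 at 4 h and 911, 986 and 794 at 6 h. At 0 h replicate A was above the reference level and B and C were far below it, while all later arrays were above every 0 h array. The rise was at least 2.88-fold at 2 h, at least 3.19-fold at 4 h and at least 10.6-fold at 6 h (adjusted p = 0.00058, 0.00028 and 8.4e-07). Without 0 h replicate A, the log2 changes of 2.91, 3.06 and 4.79 became 3.89, 4.03 and 5.76.

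*nhr-152* had signals of 127, 157 and 79 at 0 h, 643, 429 and 407 at 2 h, 372, 357 and 416 at 4 h and 626, 476 and 805 at 6 h. The 2 h arrays overlapped those at 4 and at 6 h, and none of these overlapped 0 h. It was 4.15-fold, 3.27-fold and 5.34-fold higher in order of time (adjusted p = 8.1e-05, 0.00042 and 5.5e-06). *nhr-20* gave means of 44.8 ± 14.4, 260 ± 31.5, 212 ± 31.9 and 356 ± 23 at 0, 2, 4 and 6 h. All its 0 h arrays were below the reference level, and the rise at 6 h was at least 5.09-fold (adjusted p = 8.7e-06). *nhr-228* averaged 175 ± 37.2, 416 ± 19.2, 365 ± 100 and 545 ± 143 at these times and was 3.1-fold higher at 6 h (adjusted p = 0.00028). Its call at 4 h, a log2 change of 1.05, was lost without 0 h replicate B or 4 h replicate C.

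*nhr-49*, an HNF4-type receptor that directs fatty acid desaturation and oxidation and the response to fasting, was raised from 2 h on. Its probe set 174017_at read 904, 633 and 821 at 0 h, 1168, 1733 and 2187 at 2 h, 1699, 1883 and 2162 at 4 h and 1824, 1617 and 2546 at 6 h. No later array fell into the 0 h range. It was 2.11-fold higher at 2 h and 2.52-fold higher at 6 h (adjusted p = 0.0021 and 0.00016). The second probe set, 194120_at, was called at 6 h alone, at 2.24-fold higher (adjusted p = 0.0021). *nhr-47* was 1.93-fold higher at 4 h and 2.07-fold higher at 6 h at 192271_s_at (adjusted p = 0.0017 and 0.00047), whereas 188447_s_at was not called at 6 h (log2 change -0.05). Its 6 h call ended with arrays shifted to one median (log2 change 0.69), and its 2 h call, 0.78, was lost without 0 h replicate A or 2 h replicate A.

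The largest group rose late. *nhr-58* was below the reference level on all 6 arrays of the first times, with 32.2, 7.2 and 15.2 at 0 h and 9.2, 23.4 and 39.7 at 2 h, and then read 199, 118 and 197 at 4 h and 741, 1205 and 624 at 6 h. The 4 h arrays were above all earlier ones and the 6 h arrays above those. It was at least 2.39-fold higher at 4 h and at least 11.8-fold higher at 6 h (adjusted p = 0.0015 and 3.5e-06). In the RefSeq annotation (assembly WBcel235) *nhr-58* lies next to *nhr-132*, and at 6 h against 4 h the log2 changes were 2.30 for *nhr-58* and 3.72 for *nhr-132*. Their courses differed before that, with log2 changes at 4 h against 0 h of 3.45 for *nhr-58* and -2.69 for *nhr-132*. At 6 h against 0 h these were 5.76 and 1.03, the second not called.

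*nhr-100* and *nhr-190* rose in 2 steps. *nhr-100* gave 263, 287 and 168 at 0 h, 114.2, 197 and 147 at 2 h, 517, 411 and 449 at 4 h and 2493, 2059 and 1998 at 6 h. Arrays at 0 and 2 h overlapped, the 4 h arrays were above both, and the 6 h arrays were higher than all. The rise at 6 h was 9.31-fold against 0 h and 14.6-fold against 2 h (adjusted p = 1.6e-08 and 1.7e-09), and the 4 h call (log2 change 0.97) was lost without 0 h replicate C or 4 h replicate A. *nhr-190* read 66.8, 263 and 158 at 0 h, 121.9, 89.5 and 149 at 2 h, 519, 426 and 675 at 4 h and 1624, 1351 and 1595 at 6 h. Its 0 h arrays spread widely, and all arrays from 4 h on were above them. It was at least 3.72-fold higher at 4 h and at least 10.7-fold higher at 6 h (adjusted p = 0.00077 and 5.1e-07).

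*nhr-104* and *nhr-172* rose at 6 h and not before. *nhr-104* averaged 185 ± 17.7, 142 ± 50.2, 193 ± 57.9 and 882 ± 184 at 0, 2, 4 and 6 h, and *nhr-172* averaged 97.1 ± 11.6, 115 ± 20.9, 119.6 ± 20.2 and 542 ± 87.4. In both the 3 earlier times overlapped and the 6 h arrays stood above them. The rise at 6 h against 0 h was 4.7-fold for *nhr-104* and 5.56-fold for *nhr-172* (adjusted p = 7e-05 and 0.00011). *nhr-101*, called at all 3 times, had means of 53.4 ± 36.5, 130 ± 0.608, 196 ± 96.8 and 692 ± 75.9 and was at least 8.9-fold higher at 6 h (adjusted p = 3.4e-06). Its call at 2 h (log2 change 1.49) was lost without 8 of the single arrays and that at 4 h (1.95) without 4 h replicate A.

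*nhr-4* was raised at 4 and 6 h, at 370 ± 97.1 and 355 ± 112, against 59.1 ± 31.2 at 0 h (at least 4.85-fold and at least 4.63-fold, adjusted p = 0.00044 and 0.00041). *nhr-59* is read by 172034_x_at and 172722_x_at, whose suffix marks probes that may also match other transcripts. The first averaged 553 ± 90.2 at 6 h, against 59.6 ± 42.4 at 0 h, and the second 334 ± 31.1, against 37.4 ± 35.9. They were at least 7.05-fold and at least 4.66-fold higher (adjusted p = 4.3e-05 and 0.0023). Their log2 changes, 3.62 and 3.97, were 2.75 and 2.73 without 0 h replicate C, and the second was 4.89 without 0 h replicate B. *nhr-50*, read by 193510_s_at and 172035_x_at, was raised at 6 h by 3.70 and 2.16 on the log2 scale. The second of these calls was lost without 4 of the single arrays, among them 0 h replicate B, when it was 1.52, and it was 2.88 without 0 h replicate C. The first was 4.55 without 0 h replicate C.

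*nhr-83* and *nhr-194* are annotated as pseudogenes in RefSeq, as are 11 member probe sets in all. *nhr-83* read 174, 194 and 355 at 6 h, against 27.3, 21.7 and 8.2 at 0 h, and *nhr-194* read 248, 151 and 102 at 6 h, against 16.8, 15.9 and 7.2 at 0 h. In both every 6 h array was above the reference level and every 0 h array below it. Testing needed 3 arrays above that level, which the 6 h arrays alone supplied, so the pattern is a description and no added support. The rise was at least 3.28-fold for *nhr-83* and at least 2.24-fold for *nhr-194* (adjusted p = 0.0087 and 0.0078).

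Receptors with a link to muscle were *nhr-40* and the *nhr* genes named in the study's list of transcription factors of sorted muscle cells, which was made on other arrays. Of 11 tested probe sets, 7 were raised at 6 h and 2 lowered, with a median log2 change of 1.64, beside 0.66 over all members tested and 0.31 over all probe sets tested. Of all probe sets tested 21.7% were raised and 15.6% lowered at 6 h. At 2 h 1 of the 11 was raised and 2 lowered (15.5% and 9.55% of all), and at 4 h 3 and 2 (17.1% and 11.9% of all). The summed signal of the list was 3023 to 3871 at 0 h, 1851 to 1960 at 2 h, 2626 to 2722 at 4 h and 5178 to 6139 at 6 h. Bright probe sets weigh most in such a sum. The signals of *nhr-34* at 174018_at, given above, make up much of it at 0 h and much of its fall at 2 h. The 2 lowered probe sets are both of *nhr-34*.

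*nhr-40*, which is needed for normal embryonic and larval development and movement, read 241, 74.4 and 245 at 0 h, 127, 41.9 and 198 at 2 h, 481, 396 and 475 at 4 h and 1197, 1023 and 1172 at 6 h at 175720_at. The first times overlapped, the 4 h arrays were above both, and the 6 h arrays were higher again. It was 6.88-fold higher at 6 h than at 0 h (adjusted p = 0.00014) and at least 9.37-fold higher than at 2 h (log2 change 3.47, or 2.83 without 2 h replicate B). The 4 h call, 1.45, was lost without 0 h replicate B, when it was 0.88, or without any of the 4 h arrays. The second probe set, 194035_s_at, was at least 3.16-fold higher at 6 h (adjusted p = 0.0067).

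*nhr-69*, which takes part in the control of insulin secretion, averaged 241 ± 44.3, 230.2 ± 57.5, 393 ± 50.7 and 841 ± 181 at 0, 2, 4 and 6 h. The 4 and 6 h arrays lay above 0 h without overlap, and the rise was called at 6 h, at 3.47-fold (adjusted p = 6.9e-05), and not at 4 h (adjusted p = 0.091). *nhr-42* averaged 331 ± 49.2 at 6 h, against 117 ± 38.2 at 0 h (2.92-fold, adjusted p = 0.0093). *nhr-13* and *nhr-182*, described above, were raised as well. *nhr-237* averaged 173 ± 30.9 at 6 h, against 36.5 ± 50.9 at 0 h, with a log2 change of 3.34 (adjusted p = 0.0078) that was 4.59 without 0 h replicate B, 2.73 without A and 2.71 without C. With low signals raised to the reference level this change was 1.15 and still called. Of the others, *nhr-238* had a log2 change of 1.64 (adjusted p = 0.17) and *nhr-222* of -1.13 (adjusted p = 0.4) at 6 h, and *nhr-166* was not tested, with a highest signal of 97.5.

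**Figure D4:**
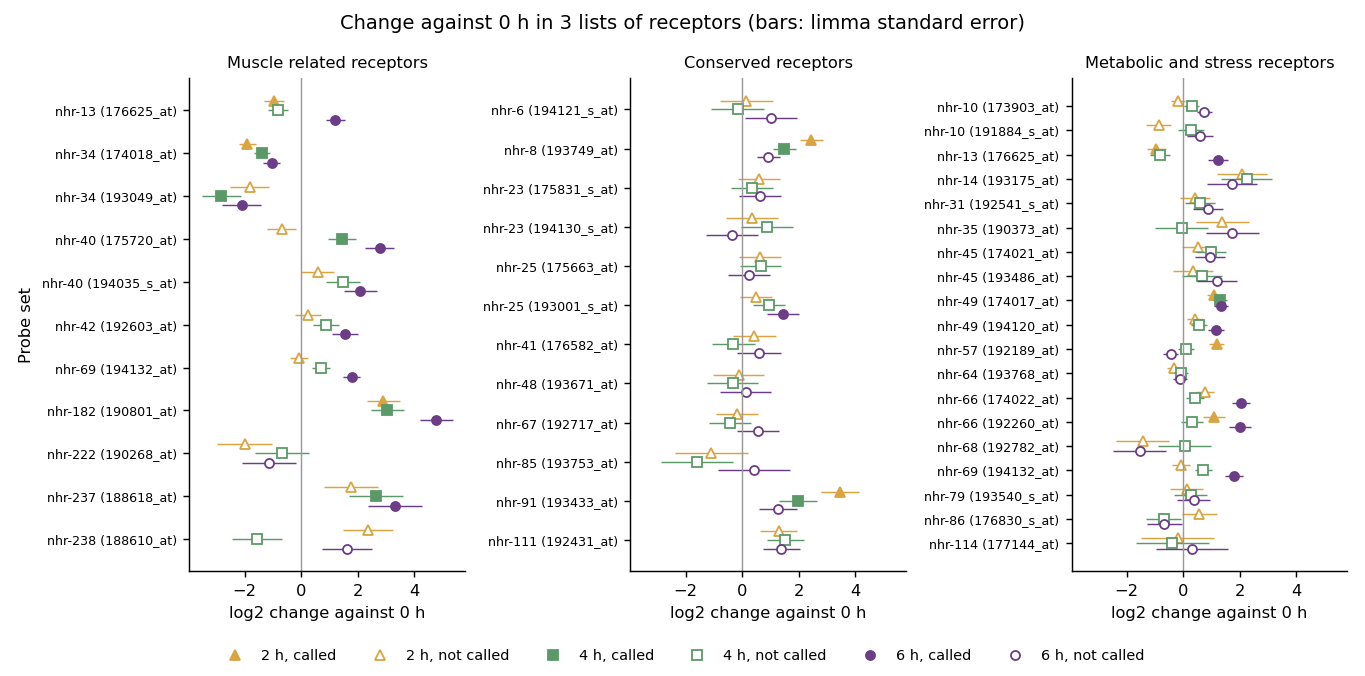
Log2 change against 0 h at 2 h (triangles), 4 h (squares) and 6 h (circles) for the tested probe sets of 3 lists of receptors, with the limma standard error as a bar. Filled symbols are called, and at 6 h they number 9 in the muscle related list (7 raised, 2 lowered), 1 in the conserved list and 6 in the metabolic list.

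The 10 receptors with recognized relatives in insects or vertebrates were read by 14 probe sets, of which 12 were tested. At 6 h 1 was raised and 0 lowered by limma (3 higher and 0 lower at an unadjusted p under 0.05), beside 21.7% and 15.6% of all probe sets tested. At 2 h and at 4 h 2 were raised (*nhr-8* and *nhr-91*) and 0 lowered, with 2 and 3 higher and 0 lower at an unadjusted p under 0.05 at these times. The call at 6 h was for *nhr-25*, the Ftz-F1 relative that acts in epidermal development and molting, at 193001_s_at, with 228 ± 21.5 at 6 h, against 99.2 ± 73.8 at 0 h (adjusted p = 0.049). That call was lost without 10 of the 12 single arrays and under 5 of the other settings, and 175663_at had a log2 change of 0.24. *nhr-23*, the ROR relative that drives molting, had changes of 0.63 and -0.37 at its probe sets. For *nhr-67*, the tailless relative, the change was 0.57 ± 0.74 (SE), for *nhr-85*, related to E75 and Rev-erb, 0.42 ± 1.29, and for *nhr-41*, related to TR2 and TR4, 0.59 ± 0.77. *nhr-6*, the NR4A relative, changed by 1.02 ± 0.93, *nhr-48* by 0.12 ± 0.90 and *nhr-111* by 1.39 ± 0.66. None of these passed the test, with adjusted p from 0.11 (*nhr-111*) to 0.93 (*nhr-48*). The probe sets 175833_s_at of *nhr-6* and 186589_at of *nhr-41* were not tested.

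Of 22 probe sets for receptors with roles in lipid, propionate, starvation, hypoxia or pathogen responses, 19 were tested, and at 6 h 6 were raised and 0 lowered by limma (7 higher and 0 lower at an unadjusted p under 0.05), beside 21.7% raised and 15.6% lowered of all probe sets tested. The median log2 change of the list was 0.95, beside 0.66 over all members tested and 0.31 over all probe sets tested. The 6 are both probe sets of *nhr-49* and of *nhr-66*, *nhr-13* and *nhr-69*. Of these, *nhr-13* and *nhr-69* are also counted in the muscle related list. *nhr-66*, which works with NHR-49 on sphingolipid genes, read 217, 265 and 217 at 0 h, 236, 491 and 534 at 2 h, 296, 364 and 268 at 4 h and 1057, 874 and 962 at 6 h at 174022_at. The 6 h arrays stood above all others, and the rise at 6 h was 4.15-fold at this probe set and 4.05-fold at 192260_at (adjusted p = 2e-05 and 0.00026). At 2 h 192260_at was also called (log2 change 1.08), a call lost without 8 of the single arrays. *nhr-64* was not called at any time, with means of 799 ± 89.3, 645 ± 173, 755 ± 98.9 and 751 ± 131 at 0, 2, 4 and 6 h and a log2 change at 6 h of -0.10 ± 0.25 (SE). *nhr-10*, which acts in propionate metabolism, had an adjusted p of 0.027 (limma) at 6 h at 1 of its 2 tested probe sets. The log2 change there, 0.75, was below 1.7-fold, and neither probe set of *nhr-10* was called. Its partner in propionate metabolism, *nhr-68*, changed by -1.54 (adjusted p = 0.22). *nhr-35* and *nhr-14* had log2 changes at 6 h of 1.73 and 1.73 (adjusted p = 0.16 and 0.14). *nhr-80*, which controls the fatty acid desaturases, was not tested, with means of 86.4 ± 55.8 at 6 h and 14.5 ± 7.61 at 0 h.

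Receptors with embryonic or epidermal roles split evenly, with 3 probe sets raised and 3 lowered of 12 tested at 6 h, beside 21.7% and 15.6% of all. The lowered ones are those of *nhr-2* and the raised ones belong to *nhr-25* and *nhr-40*. *nhr-60*, which acts in the epidermal seam cells, averaged 98.7 ± 79.4, 211 ± 36.4, 151 ± 58.9 and 105 ± 41.2 at 0, 2, 4 and 6 h and was not called (adjusted p at 2 h = 0.11).

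Several calls rest on weak signals. The falls of *nhr-161*, *nhr-54* and *nhr-109* at 2 h were at least 1.84-fold, at least 1.87-fold and at least 1.49-fold, from 0 h means of 130.4 ± 25.9, 131 ± 16.6 and 113 ± 58.8. The *nhr-161* call was lost without 2 h replicate B, and the others without any of 4 and 5 single arrays. *nhr-109* was called at 175463_at, and its other tested probe set, 182895_at, was not called. *nhr-54* had a log2 change of -2.81, or -1.66 without 2 h replicate B and -3.55 without A, and that of *nhr-161*, -3.57, was -4.51 without 2 h replicate C. *nhr-137* rose at least 3.72-fold at 2 h (adjusted p = 0.0099), with signals of 257, 281 and 387, against 75.2, 103 and 5.4 at 0 h, and its log2 change of 3.13 was 1.78 without 0 h replicate C and 3.91 without B. At 4 h *nhr-102* and *nhr-108* were called lowered and *nhr-19* and *nhr-183* raised, by log2 changes of -2.92, -2.86, 2.97 and 3.17. Each of these was lost without at least 4 single arrays, and for *nhr-102* the change was -1.93 without 4 h replicate C and -3.80 without B. With low signals raised to the reference level the 4 changes were -1.0, -0.12, 0.81 and 0.80. Under that setting *nhr-102* alone was still called. The falls of *nhr-7* and *nhr-258* at 6 h, -2.92 and -2.87, ended without 0 h replicate C and without 9 of the single arrays, and *nhr-258* was at -3.75 without 6 h replicate C. With low signals raised to the reference level they were -0.78 and -0.44, and neither was called. No later array of *nhr-258* reached the reference level. Its 0 h arrays alone let it be tested, so that fall is a description and no added support. *nhr-207* and *nhr-280* were raised at 6 h by at least 3.24-fold and at least 2.23-fold (adjusted p = 0.002 and 0.0029), calls that held without any 1 array, whereas their calls at 2 h were lost without 9 and 6 of them. Both probe sets of *nhr-28* fell at 6 h, to 87.5 ± 94.8, against 243 ± 51.7 at 0 h, at 173241_at and to 27.2 ± 23, against 139 ± 37.6, at 193665_s_at. Each call was lost without any of 4 single arrays, and the log2 changes of -2.27 and -2.65 were -3.25 and -3.31 without 6 h replicate A and, at 173241_at, -1.17 without B.

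*nhr-133* fell at 2 h, to 68.1 ± 23.8, against 265 ± 62 at 0 h (log2 change -2.0, lost without 2 h replicate B). At 6 h *nhr-18*, *nhr-262*, *nhr-95*, *nhr-234* and *nhr-159* were called raised with means of 239 ± 15.9, 135 ± 8.1, 294 ± 102, 296 ± 28.8 and 91.3 ± 58, against 83.1 ± 70.6, 32.2 ± 35.5, 87.7 ± 72.3, 102 ± 91.9 and 13.8 ± 6.36 at 0 h. All 5 calls were lost without at least 3 single arrays. That of *nhr-159* was also lost with low signals raised to the reference level (log2 change 0.41). For *nhr-234* the log2 change of 2.35 was 1.07 without 0 h replicate A and 3.23 without B, and for *nhr-95* that of 2.60 was 1.15 without 0 h replicate C, 3.23 without A and 3.41 without B. For *nhr-18* that of 1.89 was 2.55 without 0 h replicate B, and for *nhr-262* that of 2.65 was 3.54 without C. *nhr-19* was called at 6 h as well (2.64, or 3.75 without 6 h replicate A and 1.83 without B) and lost the call without any of 8 single arrays. It also lost this call with low signals raised to the reference level (1.04). *nhr-88* was raised at 6 h at 174119_at alone (2.25, adjusted p = 0.0071, or 1.37 without 0 h replicate C), and its tested probe sets 172773_x_at and 189858_at were not called (adjusted p = 0.63 and 0.24).

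Of the 41 raised and 14 lowered calls at 6 h against 0 h, 29 and 8 were never lost. That is, they held without any 1 array and under every alternative setting in which the probe set was tested. At 4 h 11 of 23 raised and 9 of 12 lowered calls were never lost, and at 2 h 11 of 17 and 9 of 17. The 29 include *nhr-194* and *nhr-280*, which were not tested at the higher reference level, so their calls were not made under every setting. Of 33 genes with several probe sets, 23 had more than 1 tested. At 6 h 7 of these genes were called the same way at all tested probe sets, 5 at some and 11 at none, and 0 had calls in opposite directions.

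Members are clustered in the genome, and in the RefSeq annotation 137 *nhr* genes lie in 44 runs of 2 to 9 neighbouring *nhr* genes. Of 116 with a probe set of their own, 81 were tested at their brightest probe set and 24 of these (29.6%) were called there at some time, beside 61 of the 191 *nhr* genes tested (31.9%). In 19 runs 1 gene was called and in 2 runs more than 1. One of these is the pair of *nhr-58* and *nhr-132*. The other is a run of 7 in which *nhr-161* fell at 2 h, *nhr-162* fell at 4 and 6 h and *nhr-42* rose at 6 h, while the other 4 were not called.

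Among nuclear receptors with other names, *sex-1*, a signal element that counts X chromosomes in sex determination, was lowered at 6 h at 3 of 3 probe sets. Of all probe sets tested 21.7% were raised and 15.6% lowered at 6 h. At 171736_x_at it averaged 4626 ± 427, 3816 ± 499, 5276 ± 987 and 755 ± 282 at 0, 2, 4 and 6 h, a log2 change of -2.68 at 6 h (adjusted p = 6.4e-09). *daf-12*, the dafachronic acid receptor, was not called at any of 3 probe sets, with log2 changes at 6 h of -1.41 to 0.97. *unc-55* and *odr-7*, which act in neurons, were not tested, and *fax-1* was not called. Of 4 tested probe sets for synthesis and delivery of dafachronic acids, 0 were called at 6 h by limma (1, for *daf-9*, had an unadjusted p under 0.05). With so few probe sets this count is not set apart from the shares over all probe sets. *emb-8*, the cytochrome P450 reductase, was raised at 2 h (log2 change 2.61), as were 15.5% of all tested.

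Co-regulators gave 5 raised and 2 lowered of 11 tested probe sets at 6 h, beside 21.7% and 15.6% of all. *dpy-22*, a Mediator subunit, averaged 255 ± 34.3, 5971 ± 1420, 938 ± 156 and 1386 ± 445 at 0, 2, 4 and 6 h at 173764_at, with its highest signal at 2 h. *gei-8*, the N-CoR relative, had log2 changes against 0 h of 2.52, 1.89 and 2.23 at 2, 4 and 6 h at 174852_at. *cbp-1*, a histone acetyltransferase, averaged 379 ± 81.3, 837 ± 97.2, 785.5 ± 79.5 and 1288 ± 305 at 0, 2, 4 and 6 h at 173017_at. *smo-1*, which encodes SUMO, fell to 2570 ± 807 at 6 h, against 26580 ± 3140 at 0 h, and *hda-1* to 437 ± 135, against 954 ± 107 at 192776_at. *mdt-15*, the Mediator subunit that works with NHR-49, had a log2 change of 0.29 at 6 h (adjusted p = 0.81). Further probe sets read *dpy-22* (187986_s_at), *gei-8* (175876_at and 175896_at), *cbp-1* (191123_s_at) and *hda-1* (171985_x_at). Their values are not given here, so the values above for these genes are those of a single probe set each.

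Known targets of these receptors had calls in both directions. Of 8 tested probe sets for fatty acid and propionate genes 2 were raised and 1 lowered at 6 h, beside 21.7% and 15.6% of all. *acs-2*, an acyl-CoA synthetase that NHR-49 induces on fasting, averaged 815 ± 115, 1648 ± 148, 305 ± 29.3 and 123 ± 50.5 at 0, 2, 4 and 6 h at 174675_at. The values of its other probe set, 192195_at, are not given here. The desaturase *fat-7* had a log2 change of 3.14 at 6 h (adjusted p = 0.00071), with 240.5 ± 62.4, against 32.6 ± 20.6 at 0 h, while *fat-6* changed by -1.16 and *fat-5* by -0.42 and neither was called. Of 8 molting and cuticle probe sets 1, for *noah-1*, was raised at 6 h (log2 change 1.13) and 0 were lowered, beside the same shares of all.

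The 147 tested members with no call against 0 h included *nhr-1*, whose 174901_at averaged 391 ± 45.6 at 6 h, against 106 ± 46.2 at 0 h, with an adjusted p of 0.099. *nhr-78* and 1 of the 2 tested probe sets of *nhr-71* were above the reference level on all arrays. They had log2 changes at 6 h of 0.40 and -0.52 (limma, adjusted p = 0.3 and 0.15), and the other *nhr-71* probe set was not called either. Of the 75 members not tested, the highest signal was 209.4.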

How the data were processed

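Each of the 12 samples, about 80 embryos of strain KM267 at the stated time, was one Affymetrix C. elegans array after 20 cycles of PCR amplification and biotin labelling, 3 independent samples a time. The deposited values are MAS5 signals, an intensity on a linear scale that the authors had scaled array by array (mean of 500.21 to 500.29 after trimming 2% at each end). No source used here gives the MAS5 version. The number of arrays limits the precision.

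From 22625 probe sets, 77 controls were left out, and 18264 (81%) with a signal over 69.7 on at least 3 arrays were tested. Log2 signals were fitted for all 12 arrays together in limma 3.58.1 under R 4.3.3 (eBayes with trend and robust estimation), with Benjamini-Hochberg adjustment over all tested probe sets. Calls needed an adjusted p under 0.05 and at least 1.7-fold. The fit was tested on simulated data. Python 3.11.15, pandas 2.3.3, numpy 2.4.6 and matplotlib 3.10.9 made counts and plots.

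Names came from GEO's annotation of the array, and 14 probe sets shared by several genes were left out. All 293 members matched RefSeq names (WBcel235). An exact permutation test of 3 against 3 arrays cannot go below p = 0.1 and was not used. Probe sets ending in _x_at (4 members) or _s_at (39) may read more than 1 transcript. The members and gene lists were chosen with earlier results of these data known. Genes named were the 8 largest rises and falls without overlap at each time against 0 h, the 4 highest signals at 0 and 6 h, the muscle related and conserved lists and up to 4 genes of each other list, which gives 62 probe sets of 53 genes. Other genes, such as *nhr-12*, *nhr-61*, *nhr-64*, *nhr-65*, *nhr-104*, *nhr-122*, *nhr-172* and *nhr-204*, were named after their values were seen. Alternatives were median scaling, quantile normalization, no filter, a higher reference level of 149.25, low signals raised to the reference level, a pseudocount of 16, no variance trend, a replicate block, only the 6 arrays compared, and leaving out each array.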

Additional observations from a re-analysis of the deposited data

Results flagged for a closer look

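In 4 members the calls at 2 h and at 6 h against 0 h had opposite directions. The change at 6 h against 2 h is the difference between those effects, so for members chosen in this way it is given as a description, with no test. *nhr-12* was higher at 6 h than at 2 h by 4.34 on the log2 scale, or 3.44 without 2 h replicate A and 4.95 without 2 h replicate B. For *nhr-13* the difference was 2.17. For *nhr-65* at 173003_s_at it was 3.7, or 4.48 without 2 h replicate B. *nhr-204* differed the other way, by -3.43, or -2.60 without 6 h replicate A. The calls at 2 h against 0 h were lost without 2, 9, 4 and 5 of the single arrays for *nhr-12*, *nhr-13*, *nhr-65* and *nhr-204*.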

How the results depend on the processing

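No comparison of a single named member changed direction past the threshold. Of the counts, those of 6 h against 4 h and 4 h against 2 h moved most. Members lowered at 4 h against 2 h numbered 7, or 4 with no variance trend and 13 in a fit of only the arrays compared. Members raised at 6 h against 4 h numbered 19, or 12 with median scaling, and those lowered numbered 1, or 3 with median scaling, 2 with quantile normalization and 2 with no variance trend. Leaving out single arrays gave 15 to 25 members raised at 4 h against 0 h (15 without 4 h replicate A), 9 to 13 lowered at 6 h against 0 h (9 without 0 h replicate B), 5 to 12 raised at 4 h against 2 h (5 without 4 h replicate A, 6 without 4 h replicate B and 6 without 2 h replicate C) and 1 to 2 lowered at 6 h against 4 h. Deviations of arrays with the same letter correlated between -0.0258 and 0.0332, so the letters did not pair the samples, and with a replicate block 38 members were raised and 13 lowered at 6 h against 0 h. Over 340 comparisons of single members, 6599 alternative values kept their side of the threshold, 342 lost the call and 127 gained it. The cause of these shifts was not tested. Members below the reference level have signals near background, where replicate arrays differ severalfold, so changes there may go undetected.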
